A study of Mus musculus with 8 samples.

Results

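Bile duct nuclei of mouse liver were described from the deposited table of single-nucleus RNA means, in which they form cluster 6 of 13 clusters. The members are every gene in the MKO and the control column of that cluster: 17310 of the 22578 genes listed had a value above 0 in at least 1 of the pair, out of 26 columns in all. The MKO pool came from Tgfbr1 MKO mice, which carry the floxed alleles (flox/flox) together with LysMcre, and the control pool from flox/flox mice without it. Both genotypes had eaten a MASH diet, a model of metabolic dysfunction-associated steatohepatitis, for 30 weeks. Each pool joined the nuclei of 3 livers. Bulk RNA-seq covered 3 MKO and 3 control liver libraries, called MKO and control livers below. The labels do not say whether each library is a different animal. The labels give no strain, age or sex, and both genotypes carry the floxed Tgfbr1 alleles. LysMcre is a Cre recombinase expressed from the Lyz2 locus, which is active in macrophages, monocytes and neutrophils, so the bile duct epithelium is not the cell type in which it is meant to act.

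Cholangiocytes line the bile ducts, alkalinise and dilute bile through apical chloride and bicarbonate transport, and carry a primary cilium that senses flow. Their identity rests on transcription factors such as Onecut1 and Sox9, and on junction proteins that seal the duct lumen. In chronic liver injury, steatohepatitis included, ducts can expand and secrete factors such as osteopontin, the product of Spp1.

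Promoter sequence is shown for Prom1, which was selective for these nuclei and differed between the pools, because it carries a motif of grainyhead-like factors, and Grhl2, such a factor, was selective too. Of 60 genes that were selective for cluster 6 (defined below by their level in the other clusters), 41 matched a RefSeq promoter by symbol (GRCm38.p6). In the 250 bases before the start, AACNGGTT on either strand was found in 1 of the 41 genes (2.44%), against 2% of 27025 genes with a promoter in the table and 2.01% of 1340 genes at or above the level floor of these nuclei. That gene was Prom1, and the motif stood before both of its annotated starts on the - strand. Both stretches are printed 5′ to 3′ on the gene's own strand, with the motif in capitals. The outer one lies at chr5:44101737-44101986 and the inner one at chr5:44094769-44095018.
Prom1, outer start: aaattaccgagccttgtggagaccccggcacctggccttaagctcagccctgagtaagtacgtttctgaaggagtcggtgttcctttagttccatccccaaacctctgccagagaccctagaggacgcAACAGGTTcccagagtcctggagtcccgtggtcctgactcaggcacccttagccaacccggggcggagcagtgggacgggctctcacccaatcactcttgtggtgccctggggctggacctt
Prom1, inner start: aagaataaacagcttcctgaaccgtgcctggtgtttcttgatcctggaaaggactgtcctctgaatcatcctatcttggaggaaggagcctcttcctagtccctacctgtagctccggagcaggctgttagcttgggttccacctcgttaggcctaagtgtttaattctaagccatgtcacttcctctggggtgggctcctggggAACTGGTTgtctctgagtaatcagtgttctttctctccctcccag
The other motifs searched on both strands were GGAATG, which TEAD factors bind, in 14.6% of the selective genes and 14.4% of all genes, and ATCAATC, a ONECUT core, in 0% and 1.71%. A match describes letters in the window, not a binding site.

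The name of the cluster was checked against markers. Of 12 bile duct markers, 11 had their highest mean in cluster 6 and all 12 were at least 2-fold over the mean of the other clusters. Their summed value was 181 in the MKO pool and 242 in the control pool, against 0.357 to 21.8 in the MKO columns and 1.02 to 33.0 in the control columns of the other 12 clusters. Since 5 of the 12 were given with the cluster, the other 7 were also read alone: 6 had their highest mean in cluster 6, and they summed to 38.1 in the MKO pool and 49.3 in the control pool, against 0.0591 to 21.6 and 0.1402 to 29.7 in the MKO and control columns of the other clusters. The exception was Krt7, a duct keratin, at 0.123 in MKO and 0.157 in control nuclei of cluster 6, and at 0.453 and 0.251 in MKO and control nuclei of cluster 12. Cluster 12, in which mesothelial markers summed to 55.7 (MKO) and 64.9 (control), was the cluster most like the bile duct nuclei, with a correlation of 0.40 across 1488 genes on the log2 scale. Cluster 5, in which stellate cell markers summed to 129.5 and 130.5, followed at 0.34, and the other 10 clusters lay between 0.11 and 0.28. The 1488 genes were those whose mean in cluster 6 reached its level floor, so the correlations are no general likeness of cell types. They describe columns of the same 2 libraries and carry no p.

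Bicc1, an RNA-binding protein of cilia and tubules, was the marker shared most with those clusters. It stood at 24.1 in MKO and 35.5 in control bile duct nuclei, at 19.5 and 27.8 in MKO and control nuclei of cluster 12, and at 8.60 and 13.7 in those of cluster 5.

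Of the marker sums of other cell types given here, that of hepatocytes differed most between the pools of cluster 6. Hepatocyte markers (15 genes) summed to 119.8 in the MKO and 63.8 in the control column of cluster 6, and every cluster held them, with 71.6 to 236 in the other MKO columns and 41.4 to 218 in the other control columns. No hepatocyte marker was highest in cluster 6. Macrophage markers (12 genes, none at the level floor) summed to 1.80 and 1.35 in MKO and control bile duct nuclei, and 2 were at 0 in each. Stellate cell markers summed to 2.51 and 2.87, portal fibroblast markers to 6.67 and 5.77, liver sinusoidal endothelial markers to 0.747 and 0.650, and T and NK cell markers to 0.334 and 0.351. Of the portal fibroblast genes only Gas6 reached the floor, at 6.44 in MKO and 5.65 in control nuclei. Immediate early and stress genes of handling (23 genes, none at the floor) summed to 5.03 and 3.76.

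The MKO column of cluster 6 held fewer genes above 0, 14325, than the control column, 16746. Its smallest non-zero value was 0.00602, against 0.00156 in the control column. That ratio of 3.87 exceeded those of the other 12 clusters, which ran from 0.376 to 1.86. How many nuclei and molecules lie behind each column is unknown, so no interval can be set on any nuclear value. With 1 pool per genotype no test was possible either, and what follows compares those pools.

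Genes were called selective for bile duct nuclei where their mean over the MKO and control columns reached a floor of 1.44 and was at least 4-fold above the mean of every other cluster. The floor was set at the 90th percentile of the larger of the MKO and control values, zeros left out. The 60 selective genes are a description of how the nuclei were clustered and carry no test. Taken on 1 pool alone the rule gave 57 genes in MKO and 61 in control nuclei, with 40 in both. Onecut1 and Nebl lay just inside the threshold at 4.08-fold and 4.11-fold, and Ccdc162 and Cftr just outside at 3.89-fold and 3.79-fold.

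Each of the 5 genes given as markers was among the 12 most selective. Chst9, a sulfotransferase for N-acetylgalactosamine, stood 145-fold over the next cluster, with 3.88 in MKO and 2.87 in control nuclei. Kcnma1, the pore of the large-conductance calcium-activated potassium channel, stood 110-fold over the next cluster, with 11.4 in MKO and 20.7 in control nuclei. Anxa13, an annexin of epithelial apical membranes, had 5.24 in MKO and 5.13 in control nuclei and at most 0.0129 and 0.101 in MKO and control nuclei of any other cluster. These genes marked the ducts in both pools, at nearly the same level for Anxa13.

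Pkhd1, which encodes the ciliary and ductal protein fibrocystin, had 54.6 in MKO and 72.5 in control nuclei, 42.9-fold over the next cluster. Spp1 had 58.6 in MKO and 36.4 in control nuclei, 40.7-fold over the next cluster. Grhl2, an epithelial transcription factor that maintains junctions, had 2.30 in MKO and 2.33 in control nuclei. Ddit4l, an inhibitor of mTOR signalling, had 2.03 and 1.48, Sytl5 1.85 and 2.64, and Scara3 1.32 and 2.97 in MKO and control nuclei.

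**Figure D1:**
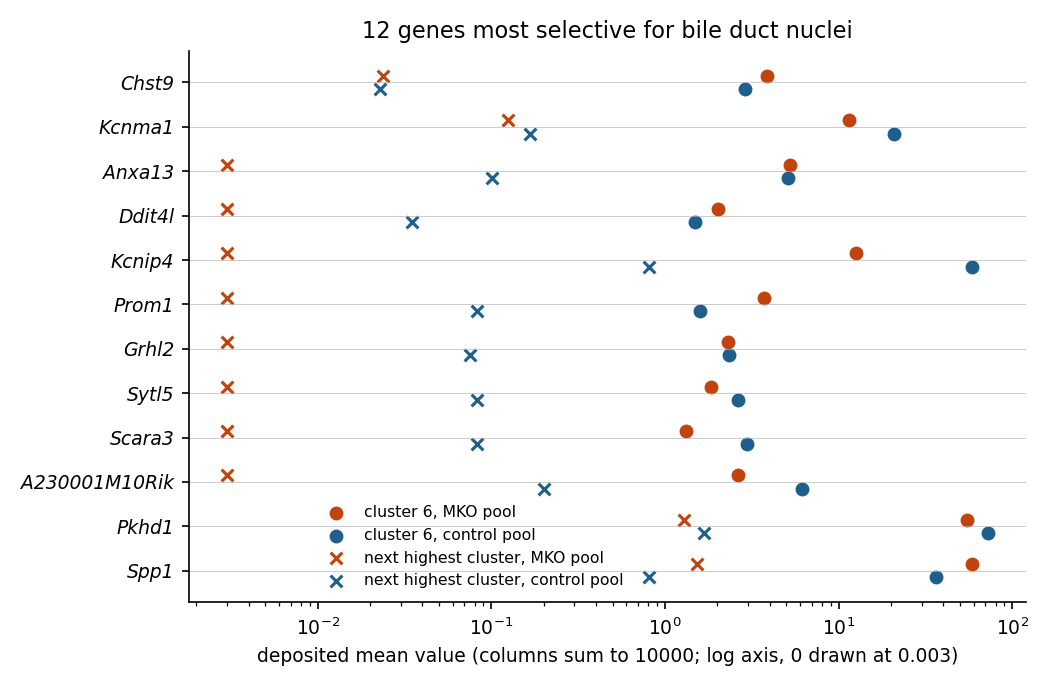
Deposited mean value (log axis, columns sum to 10000) of the 12 genes most selective for bile duct nuclei, in cluster 6 (circles) and in the next highest cluster (crosses), with the MKO pool in red above the control pool in blue. Kcnip4 has the widest gap between the pools among the 12, at 12.6 in MKO and 58.4 in control nuclei.

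Between genotypes, 81 of 1731 genes whose larger value reached the floor were at least 2-fold higher in MKO bile duct nuclei (4.68%) and 50 were at least 2-fold lower (2.89%). Ratios are on the log2 scale with a pseudocount of 0.144, and their median was -0.13. When they were centred on that median the split was 103 higher and 32 lower. Of the 60 selective genes, 2 were 2-fold higher (3.33%) and 7 were 2-fold lower (11.7%), with a median of -0.18. Among the 1671 other genes at the floor, 4.73% were higher and 2.57% lower. The filters differ: a selective gene needed a mean of both pools at the floor, the others only their larger value. Ctnna2, Wnk2, 5330417C22Rik and Scara3, of the 7, were under the floor in MKO nuclei (0.607, 0.931, 0.985 and 1.32). They passed through the control pool, and Dmbt1, of the 2, through the MKO pool. The shares are therefore no result about the selective genes. In the other 12 clusters 2.23% to 21.96% of genes at their own floors were past 2-fold, against 7.57% in cluster 6.

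Kcnip4, which encodes a potassium channel interacting protein that modulates Kv4 channels (chromosome 5, 48389502 to 49524907, - strand, GRCm38), had 12.6 in MKO and 58.4 in control nuclei. This 4.62-fold lower level, a log2 ratio of -2.19, made it the lowest in ratio of the 5 given markers. In every other cluster its value was at most 0.0736 in MKO nuclei and 0.809 in control nuclei, and it was lower in MKO nuclei in 11 of the 12. Ctnna2, an alpha-catenin best known from neurons, had 0.607 in MKO and 4.86 in control nuclei, a log2 ratio of -2.73. Slit2, a secreted guidance ligand for Robo receptors, had 0.594 in MKO and 4.25 in control nuclei, a log2 ratio of -2.57. In the other clusters the median log2 ratio was -0.01 for Ctnna2 and -0.05 for Slit2, where the pseudocount pulls low values to 0. Ctnna2 was at 0 in 4 MKO and 3 control columns, and Slit2 in 6 and 3. Of the other 12 clusters, Ctnna2 was lower in the MKO pool in 6 and higher in 4. Slit2 was lower in 8 and higher in 1. In cluster 12 Ctnna2 had 0 in MKO and 0.708 in control nuclei, and Slit2 0.739 and 1.72.

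Ppp2r2b, a regulatory subunit of protein phosphatase 2A, had 3.52 in MKO and 12.1 in control nuclei. Tmem45a, a transmembrane protein gene selective for these nuclei, had 2.80 in MKO and 8.22 in control nuclei. Kcnab1, a beta subunit of voltage-gated potassium channels, had 0.944 in MKO and 3.32 in control nuclei, whereas it was higher in the MKO pool in all 12 other clusters. The other genes with the lowest ratios were Stat4, a transcription factor of interleukin-12 signalling, Adgrl3, an adhesion receptor, Greb1l, the cadherin gene Cdh2, the surface glycoprotein gene Cd200, the kinase gene Pak3 and Socs2, a feedback inhibitor of growth hormone signalling. Their log2 ratios lay between -1.86 for Stat4 and -1.61 for Socs2.

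Dmbt1, a secreted scavenger-receptor glycoprotein of mucosal and ductal epithelia, had 5.44 in MKO nuclei and was listed at 0 in control nuclei. It was listed at 0 in all 13 control columns and above 0 in 10 of the 13 MKO columns, with at most 0.392 outside cluster 6. Dmbt1 therefore passed the selective rule through the MKO pool alone. Sgcd, the delta subunit of the sarcoglycan complex, had 2.60 in MKO and 0.149 in control nuclei, a log2 ratio of 3.23. Cluster 5 held it at 2.44 and 2.20 in MKO and control nuclei and cluster 12 at 3.21 and 8.38.

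Tmeff2, a transmembrane protein with follistatin-like domains, had 3.12 in MKO and 0.272 in control nuclei, and Frmpd4, a scaffold protein, 2.25 and 0.298. Tmem45b had 2.29 in MKO and 0.448 in control nuclei. Prom1, which encodes the apical membrane protein CD133 (chromosome 5, 43993620 to 44102032, - strand, GRCm38), had 3.70 in MKO and 1.58 in control nuclei, and it was the other selective gene that was 2-fold higher. Cldn3, a claudin of tight junctions, had 1.92 in MKO and 0.570 in control nuclei. Its log2 ratio was 1.53, with a median of 0.44 in the other 12 clusters. Lcn2, an iron-siderophore-binding secreted protein, had 2.15 in MKO and 0.477 in control nuclei, but its log2 ratio was also above 0 in all 12 other clusters (0.37 to 2.13).

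**Figure D2:**
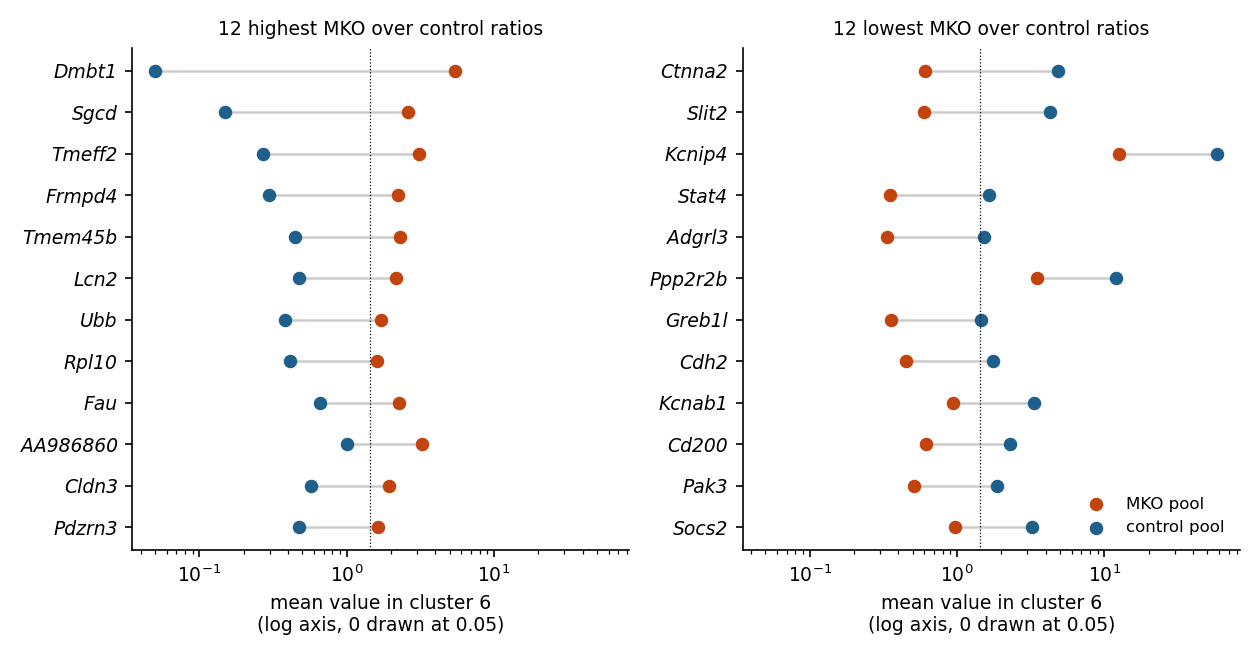
Mean value in cluster 6 (log axis) for the 12 genes with the highest and the 12 with the lowest ratio, with the MKO pool in red and the control pool in blue and a line joining the pair. The dotted line is the floor of 1.44, and Dmbt1, listed at 0 in control nuclei, is drawn at the left edge.

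Ratios were also set beside those of the other clusters. Of the 81 genes that were 2-fold higher, 56 had a median log2 ratio of at least 0.5 in the other 12 clusters, and 30 were positive in all 12. Of the 50 that were 2-fold lower, 4 had a median of -0.5 or below, and 0 were negative in all 12. After the median of the other clusters was subtracted, 22 of the 81 and 34 of the 50 were still past 2-fold. Over all 1731 genes the subtraction gave 37 higher and 37 lower. A gene nearly absent from the other clusters has a median near 0 there because of the pseudocount, so the subtraction leaves its ratio almost unchanged. Prom1, with at most 0.0328 in MKO and 0.0830 in control nuclei of any other cluster, had a median of 0. These counts therefore cannot separate a change limited to bile duct nuclei from a gene's absence elsewhere. The difference between the 81 and the 50 was not tested, since all ratios come from the same pair of pools.

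Ribosomal protein genes made up 24 of the 81. All 31 that reached the floor were positive, with a median log2 ratio of 1.16 in cluster 6 and 0.61 in the other clusters, and the 81 measured summed to 105.0 in MKO and 49.1 in control nuclei. Of 10 hepatocyte markers at the floor 5 were 2-fold higher, with a median of 1.05, against 0.62 in the other clusters. Apoa1, the main apolipoprotein of HDL, had 16.1 in MKO and 5.96 in control nuclei, and Alb 52.5 and 28.3. Cps1, a hepatocyte enzyme of the urea cycle, ran the other way with 1.59 in MKO and 3.003 in control nuclei. The 8 mitochondrially encoded genes at the floor were all positive, with a median of 0.71. Positive ratios numbered 644 among all 1731 genes at the floor. These transcripts are abundant in hepatocytes or in cytoplasm. With 522 hepatocyte-selective genes left out and the columns rescaled, 80 of 1679 genes were 2-fold higher and 46 were lower. That setting kept Apoa1, at a log2 ratio of 1.41, so it did not leave out every hepatocyte marker. The source of the ribosomal, mitochondrial and hepatocyte marker transcripts in bile duct nuclei was not tested, nor was their part in the other ratios.

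**Figure D3:**
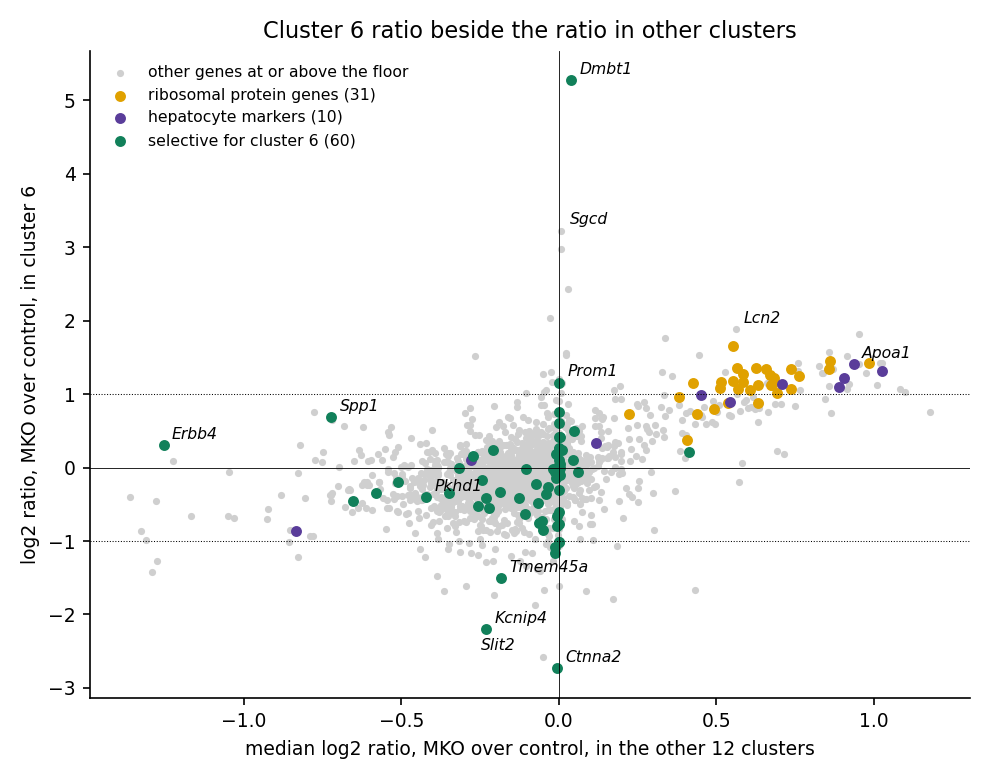
Log2 ratio of MKO over control in cluster 6 (vertical) against the median of the same ratio in the other 12 clusters (horizontal), for genes at or above the floor. Ribosomal protein genes (yellow) and hepatocyte markers (purple) mostly lie to the upper right. Kcnip4 (-0.23), Ctnna2, Slit2, Dmbt1 and Sgcd lie near 0 on the horizontal axis. Genes with little signal in the other clusters fall near 0 there because of the pseudocount.

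Of 35 genes of biliary identity 20 reached the floor, 16 of them selective. Prom1 was 2-fold higher and Kcnip4 2-fold lower, where 4.68% and 2.89% of all genes at the floor were, so these counts are near the background. In the same genes the median log2 ratio was -0.17 (other clusters -0.12). The transcription factors named here were within 2-fold, on both sides. Sox9 had 1.94 in MKO and 1.79 in control nuclei, Onecut1 6.14 and 4.31, Onecut2 12.5 and 14.4, and Glis3 25.3 and 34.5. Epcam, the epithelial adhesion molecule, had 2.13 in MKO and 1.78 in control nuclei.

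Keratins of the duct were low in these nuclei and below the floor. Krt19 had 1.35 in MKO and 0.189 in control nuclei. It was listed at 0 in 9 of 13 MKO columns and 11 of 13 control columns, and had 0.967 in MKO nuclei of cluster 12. Krt8 had 0.517 and 0.561 and Krt18 1.22 and 0.578 in MKO and control nuclei.

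Cilium genes (5 of 31 at the floor) had 0 members past 2-fold, which with 5 genes and 7.57% of all genes past 2-fold is no result about the list. Dcdc2a, a ciliary microtubule-binding protein, had 5.61 in MKO and 10.4 in control nuclei, and Pkd2, polycystin-2, had 2.08 and 1.77. The median log2 ratio was -0.08, against -0.20 in the other clusters. Of the genes of bile modification, 12 of 39 measured reached the floor, and 1 was higher and 1 lower by 2-fold. Kcnq1, a basolateral potassium channel of secretory epithelia, had 5.27 in MKO and 2.28 in control nuclei. Cftr, the apical chloride channel, had 1.86 in MKO and 3.99 in control nuclei. Ano1, a calcium-activated chloride channel, had 2.16 and 1.35, Atp1b1, the sodium pump beta subunit, 4.83 and 2.68, and Slc4a4, a sodium bicarbonate cotransporter, 3.34 and 4.71 in MKO and control nuclei. Channels therefore lay on both sides.

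Junction and polarity genes (16 of 35 measured at the floor) had 13 negative ratios, where 1087 of all 1731 genes were negative. Their median was -0.23, against -0.22 in the other clusters. Cldn3 was past 2-fold, 1 of the 16, where 7.57% of all genes at the floor were, so this count is near the background. Magi1, a scaffold of tight junctions, had 51.9 in MKO and 59.7 in control nuclei, Cdh1, E-cadherin, 4.26 and 5.50, Pard3, a polarity protein, 6.996 and 10.8, and F11r, a junctional adhesion molecule, 1.81 and 3.22. Basement membrane genes had 9 of 34 at the floor. Itgav was 2-fold lower and Col4a3 2-fold higher, the second with 1.99 in MKO and 0.822 in control nuclei, and Lama4, a laminin alpha chain, had 1.85 and 3.59. With 9 genes and 7.57% of all genes past 2-fold, these counts are no result about the list.

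Secreted and reactive-duct genes reached the floor in 7 of 49 cases. Spp1 was higher in the MKO pool of bile duct nuclei by 0.69 on the log2 scale, while it was lower in the MKO pool in 11 of the 12 other clusters, where its value was at most 1.53 in MKO and 1.16 in control nuclei. Pdgfd, a ligand of the PDGF receptor beta, had 29.4 in MKO and 34.5 in control nuclei, and Pdgfc, a PDGF ligand too, 7.35 and 9.85. C3, a complement protein also made by hepatocytes, had 6.02 and 3.47, and Pigr, which carries IgA into bile, 1.61 and 0.843. Mmp7, a protease of injured ducts, stayed below the floor with 1.19 in MKO and 0.554 in control nuclei.

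**Figure D4:**
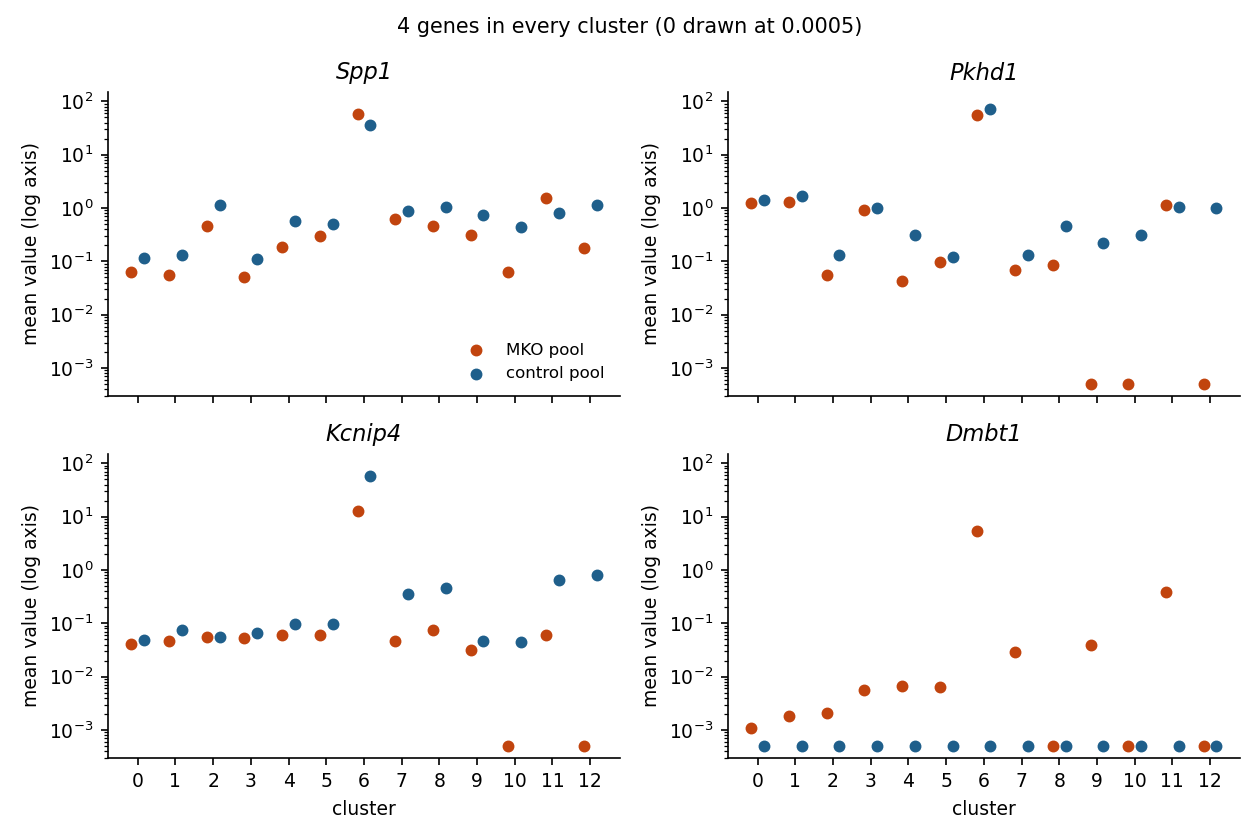
Mean value (log axis) of Spp1, Pkhd1, Kcnip4 and Dmbt1 in every cluster, MKO pool in red left of the control pool in blue. In cluster 6 Spp1 is higher in the MKO pool (58.6 against 36.4), while Dmbt1 is at 0 in all 13 control columns.

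Signalling genes were read list by list, and with 7.57% of all genes at the floor past 2-fold, a list of 6 to 12 genes with 1 member or none past it is near the background. The deleted receptor gene Tgfbr1 had 1.56 in MKO and 1.31 in control bile duct nuclei. In cluster 2, in which macrophage markers summed to 80.4 and 72.2, it had 4.87 in MKO and 13.5 in control nuclei. Which exon is floxed was not stated, so a mean over the whole gene need not show a deletion. Of 11 TGF-beta and BMP genes at the floor only Itgav, an integrin subunit that can activate latent TGF-beta, was past 2-fold, with 0.891 in MKO and 2.60 in control nuclei. Its partner Itgb8 had 2.59 and 1.68, and Smad3 had 1.97 and 2.31.

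Of 6 Notch genes at the floor Jag1, the ligand that specifies ducts in development, was 2-fold lower, with 0.864 in MKO and 2.03 in control nuclei. The receptor gene Notch2 had 2.65 and 2.96 and the target Hes1 1.59 and 1.01. Of 8 Hippo pathway genes Stk3, an upstream kinase, was 2-fold lower (1.25 in MKO and 2.75 in control nuclei), and Yap1, the coactivator, had 1.76 and 1.91. Of 12 growth factor receptors 0 were past 2-fold. Erbb4, a receptor for neuregulins, had 58.9 in MKO and 47.8 in control nuclei, although it was lower in the MKO pool in all 12 other clusters.

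Of interferon, MHC and complement genes 4 of 30 reached the floor. H2-K1, an MHC class I heavy chain, had 8.72 in MKO and 5.28 in control nuclei, B2m 3.99 and 2.24, and H2-D1 3.22 and 1.85. Their log2 ratios and that of C3 lay between 0.71 and 0.80, with a median of 0.76 in cluster 6 and 0.58 in the other clusters. Of 26 cell cycle and senescence genes only Ccnd3 reached the floor, at 4.85 in MKO and 3.97 in control nuclei.

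In bulk liver the genes of bile duct nuclei were read for differences between MKO and control livers with limma on log2(value + 1). Fewer cells of a type and less RNA per cell cannot be told apart there. Of 15249 genes tested, 452 (2.96%) were higher and 13 (0.0853%) lower in MKO livers at a Benjamini-Hochberg adjusted p under 0.05. The 465 calls together became 180 without MKO 2, 190 without MKO 3 and 243 without control 2. Of the 60 selective genes 48 were tested and 0 were called (0 by edgeR and 1 by DESeq2), with 5 (10.4%) at an unadjusted p under 0.05, against 12.1% of all genes. Their median log2 fold change was -0.36, with 43 negative and 5 positive. Over all 15249 genes it was -0.02, with 8246 negative and 7003 positive. Dmbt1, Kcnip4, Chst9, Ctnna2, Hnf4g, Tox3, Sytl5 and 5 others were not analysed in the bulk libraries.

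That shift rested on 1 library. Control 3 was the highest of the 6 livers for 35 of the 48 selective genes (72.9%) and for 10 of 11 bile duct markers, against 16.6% of all genes. Selective genes in control 3 stood at a median of 2.16 times the mean of the other 5 livers. Without control 3 their median log2 fold change was -0.01, with 21 positive and 27 negative, and that of the bile duct markers was 0.13, with 7 positive and 4 negative, against -0.21 with all 6 livers. Control 3 also had the lowest sum of macrophage markers, 3815, against 11451 to 17463 in MKO livers and 5618 and 9149 in the other control livers. Its macrophage level and its bile duct level moved apart, and the part of either in the other was not tested.

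Spp1 had 710, 673 and 477 in MKO livers and 782, 794 and 2016 in control livers. The groups did not overlap, and control 3 was far above the rest. Groups stood apart for 2960 of all 15249 genes, 5 of 48 selective and 2 of 33 biliary identity genes. The log2 fold change of Spp1 was -0.82 ± 0.35 (SE, limma adjusted p = 0.395), and -0.37 without control 3. It was opposite in sign to the Spp1 ratio of 0.69 in the bile duct nuclei. Epcam had 33.0, 56.1 and 28.9 in MKO livers and 28.2, 34.6 and 168 in control livers, a log2 fold change of -0.53 ± 0.61 (limma adjusted p = 0.804). Without control 3 it was 0.26.

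Pkhd1 had 105.0, 126 and 86.7 in MKO livers and 109.7, 101 and 151 in control livers, and the groups overlapped (log2 fold change -0.18 ± 0.22, limma adjusted p = 0.820). Krt19 had 23.2, 12.2 and 23.1 in MKO livers and 14.1, 14.7 and 44.3 in control livers (-0.16 ± 0.49, limma adjusted p = 0.937). Anxa13 had a log2 fold change of -0.60 ± 0.85 and Kcnma1 of 0.04 ± 1.05, at 2.44, 5.10 and 5.78 in MKO livers and 4.34, 0 and 23.7 in control livers.

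Anxa4, an epithelial annexin selective for these nuclei, had 1026, 1074 and 1052 in MKO livers and 1386, 1349 and 1357 in control livers. The groups stood apart with little spread, but the call was missed with limma (log2 fold change -0.38 ± 0.10, adjusted p = 0.0906) and made with DESeq2 (adjusted p = 0.0489), and over all alternatives the adjusted p ran from 0.0489 to 0.324. In bile duct nuclei Anxa4 had 3.87 in MKO and 4.94 in control nuclei. Erbb4 had 50.04, 24.5 and 35.6 in MKO livers and 60.8, 63.0 and 81.8 in control livers (-0.93 ± 0.29, limma adjusted p = 0.198). The groups of Anxa4 and Erbb4 were apart, as were those of 2960 of all 15249 genes. Shank2 (-0.70) and Elovl7 (-1.16) had limma adjusted p of 0.313 and 0.397.

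**Figure D5:**
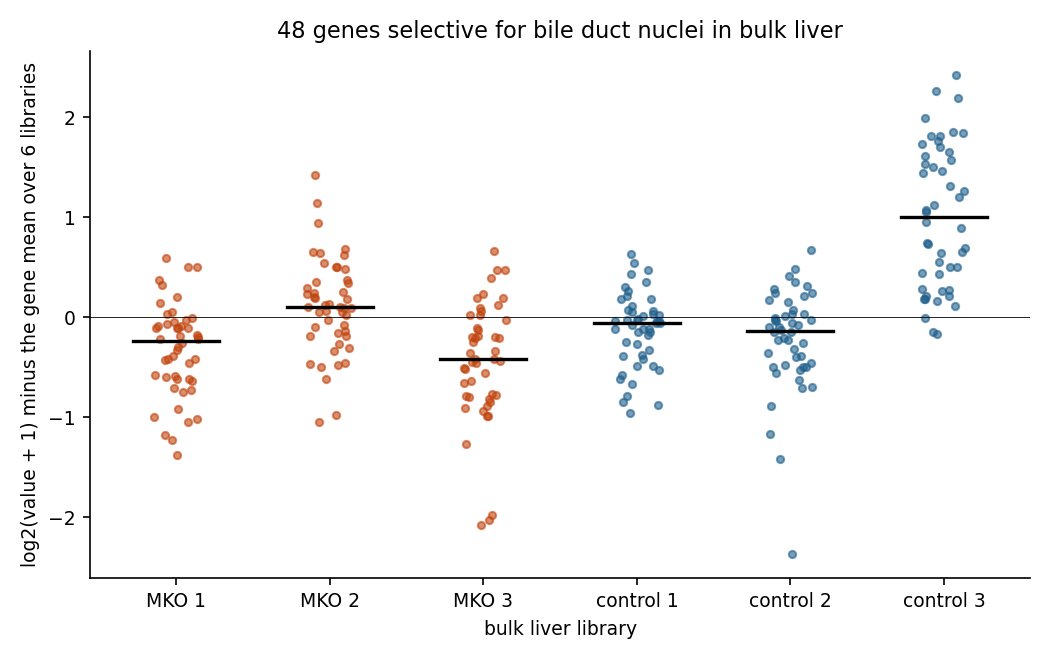
Log2(value + 1) minus the gene's mean over the 6 livers, for 48 selective genes, in MKO livers (red) and control livers (blue). Black bars are medians: control 3 stands at 1.001, and the other 5 livers lie between -0.42 and 0.10.

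Of 33 biliary identity genes tested in bulk 0 were called by limma or edgeR and 1 by DESeq2, with 2 at an unadjusted limma p under 0.05, where 12.1% of all genes were. These were Spp1 and Ezr, which encodes ezrin, a linker of apical membrane and actin. Ezr had 286, 256 and 303 in MKO livers and 157, 146 and 222 in control livers. Its log2 fold change was 0.70 ± 0.18 (limma adjusted p = 0.0993), and it passed without control 3 (adjusted p = 0.0388) and in DESeq2 (adjusted p = 0.0375), within a range of 0.0375 to 0.331 over all alternatives. In bile duct nuclei Ezr stayed below the floor, with 1.31 in MKO and 1.05 in control nuclei. Krt8, the member with the highest bulk mean, had 5474, 5109 and 6767 in MKO livers and 5847, 8115 and 5343 in control livers (log2 fold change -0.14 ± 0.18, limma adjusted p = 0.828). Clu, a secreted chaperone also made by hepatocytes, averaged 23821 ± 3423 in MKO livers and 29392 ± 5665 in control livers (SD, n = 3 each; log2 fold change -0.30).

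The members of the pathway lists named next passed in whole liver and did not reach the floor in bile duct nuclei. Axl, a receptor tyrosine kinase that clears apoptotic cells, rose in MKO livers by a log2 fold change of 1.21 (limma adjusted p = 0.00535), with 0 in MKO and 0.0170 in control bile duct nuclei. Lfng, a Notch glycosyltransferase, rose by 1.48 (limma adjusted p = 0.00707), with 0.101 in MKO and 0.0170 in control bile duct nuclei. Cd44, a hyaluronan receptor, rose by 1.36 (adjusted p = 0.0280), Abcc1, an export pump, by 1.08 (adjusted p = 0.0438) and Tgfb1 by 0.98 (adjusted p = 0.0315). With 1 library left out in turn, Cd44 and Tgfb1 kept their calls in 2 of 6 fits and lost them without control 2, control 3, MKO 2 or MKO 3 (highest adjusted p 0.134 and 0.141). Abcc1 was called only without MKO 1 (highest adjusted p 0.191). In bile duct nuclei Cd44 had 0.579 in MKO and 1.42 in control nuclei, just under the floor of 1.44, Abcc1 0.307 and 0.601, and Tgfb1 0.0859 and 0.0344.

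Of 30 interferon and MHC genes 9 (30%) rose and 0 fell in MKO livers, where 2.96% of all genes rose. The 9 became 3 without MKO 3, 4 without MKO 2 and 5 without control 3. Leukocyte markers moved with them: 7 of 12 macrophage markers rose (median log2 fold change 1.57) and 2 of 9 T and NK cell markers rose (median 1.13), and their part in the interferon and MHC calls was not tested. The 9 included Gbp3 (log2 fold change 1.53) and Irf7 (1.004), neither of which reached the floor in bile duct nuclei. Cdkn2a and Ccnd2 of the cell cycle list rose by 3.20 and 1.63. No member of the cilium, junction, TGF-beta, basement membrane or growth factor receptor lists was called in either direction by limma on all 6 livers. Members at an unadjusted limma p under 0.05 numbered 1, 2, 4, 3 and 2, which is 3.45% to 10.8% of each list against 12.1% of all genes. For the TGF-beta and BMP list, edgeR, DESeq2 and the limma fits without control 1 and without MKO 1 each called 1 gene. Limma without control 3 called 1 basement membrane gene. Lcn2 had 836, 3610 and 1594 in MKO livers and 3188, 11285 and 347 in control livers, which overlapped (limma adjusted p = 0.919).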

How the data were processed

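Per the labels' protocols, nuclei were isolated from frozen liver, stained with propidium iodide, sorted and run on 10x Genomics Chromium, and total RNA for bulk libraries came from the same kind of tissue. The submitters' processing notes name mm10, Seurat 4.0.1, Cell Ranger, STAR, RSEM 1.3.3, FastQC and DESeq2 without their roles. For the nuclei the authors deposited a signal: 1 mean for each gene in each cluster of each pool, in 26 columns that sum to 10000. How nuclei were filtered, clustered and checked for doublets was not stated. For bulk the deposited values are also a signal, reads divided by a library's size factor. They gave whole reads for 100% of values within 0.01 (17448117 to 23986319 per library over 15283 genes). The log2 fold changes and p-values deposited by the authors were not used for any result.

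Bulk values were tested with limma-trend (limma 3.58.1, R 4.3.3) on log2(value + 1) over 15249 genes with a mean of at least 1, which left out 34; changes of low genes are understated on this scale. edgeR 4.0.16 and DESeq2 1.42.0 on recovered reads, other filters, pseudocounts and scalings, a replicate block and each library left out were alternatives. The edgeR test called 482 genes, DESeq2 684 and limma 465. The labels do not say whether each library is a different animal; p-values therefore measure only how these samples scatter. Samples with the same replicate number did not deviate together (correlations of 0.06, -0.03 and -0.11), so the numbers were not taken as pairs. Both scripts were tested on simulated data. Nuclear ratios used Python 3.11.15, with a pseudocount of 1/10 of the floor, and gene positions came from GENCODE on GRCm38.

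Members and gene lists were chosen with earlier results of these data known. Named genes were the 5 given markers, Tgfbr1, the 12 most selective genes, the 12 highest and 12 lowest ratios with an official-looking symbol, up to 4 list members by ratio and 3 by level, and called bulk members. Krt19, Krt18, Mmp7 and Ezr among others, and Krt8 in the nuclei, fall outside that rule and were named after their values were seen. The rule takes Prom1, but its promoter was shown after its values were seen. Counts of near-identical genes (ribosomal proteins, H2, Gbp) are uncertain. Some genes that the rule takes are not named, among them Ubb, Rpl10, Fau, AA986860, Pdzrn3 and Maml2. A gene that the rule takes is not reported here.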

Additional observations from a re-analysis of the deposited data

Results flagged for a closer look

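Sgcd and Adgrl3 were past 2-fold in bile duct nuclei in one direction and past 2-fold in another cluster in the opposite direction. Sgcd, with a log2 ratio of 3.23 in cluster 6, had -1.33 in cluster 12, at 3.21 in MKO and 8.38 in control nuclei. Adgrl3, an adhesion receptor gene with 0.335 in MKO and 1.52 in control bile duct nuclei (log2 ratio -1.79), had 1.44 in cluster 2, at 2.35 in MKO and 0.775 in control nuclei. In cluster 10 its log2 ratio was 3.02, at 2.52 in MKO and 0.133 in control nuclei. Of the genes at their own floors, 21.96% were past 2-fold in cluster 10, 19.04% in cluster 12 and 9.76% in cluster 2, against 7.57% in cluster 6. With 1 pool per genotype the difference was not tested for either gene.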

How the results depend on the processing

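The count of genes 2-fold higher in MKO bile duct nuclei, 81, was 49 with a pseudocount of 1/3 of the floor, 190 with the floor at the 80th percentile, 36 at the 95th and 37 after the median ratio of the other 12 clusters was subtracted, a setting chosen after seeing the data. The 50 lower genes became 30, 102 and 26 under the first 3 of these, 37 after the subtraction, and 32 when ratios were centred on their median. Tmeff2 and Frmpd4 moved to 2.26 and 1.81 with the larger pseudocount, and Spp1 and Apoa1 to 1.41 and 0.48 after the subtraction. Selective genes numbered 106 at 2-fold and 39 at 8-fold. In bulk, called selective genes were 0 under every alternative except DESeq2 (1, Anxa4), and called biliary identity genes were 0 except in DESeq2 (1) and without control 3 (1, Ezr), a range of 0 to 1 over the fits with 1 library left out. Kcnma1 reversed to -0.24 with a pseudocount of 10, -0.081 with quantile normalisation, -1.06 in edgeR and -1.06 in DESeq2. With 1 library left out, log2 fold changes ranged from -1.14 to 1.18 for Kcnma1, -1.11 to 0.26 for Anxa13, -1.002 to 0.26 for Epcam, -0.43 to 0.36 for Krt19, -0.26 to 0.039 for Krt8 and -1.83 to 0.68 for Lcn2. The cause was not tested. The fit with replicate number as a replicate block called 408 genes in place of 465, with 0 selective and 0 biliary identity genes; Abcc1 and Tgfb1 lost their calls under it. Abcc1 also lost its call with no filter on low values, and Abcc1, Cd44, Tgfb1 and Klf2 lost theirs with quantile normalisation. How many nuclei each cluster held is unknown, which limits all nuclear values.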
